A study of Mus musculus with 10 samples.

Results

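Protein kinase A (PKA) is encoded in the mouse by a small set of subunit genes, and A-kinase anchoring proteins (AKAPs) place the enzyme within the cell. The 9 genes described here are the catalytic subunit genes Prkaca and Prkacb, the regulatory subunit genes Prkar1a, Prkar1b, Prkar2a and Prkar2b, and the anchor genes Akap1, Akap7 and Akap10. They were chosen by name for this role and are 9 of the 24453 gene symbols in the table. All 9 were listed, and 8 reached the mean of 0.5 RPKM (reads scaled to transcript length and to the total of the library) that was needed for a test. Prkar1b did not.

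Transcripts were measured in denuded germinal vesicle (GV) oocytes of C57Bl/6J mice, with 16 oocytes of a single animal pooled in each of the 10 libraries. Mutant oocytes carried Setdb1, the gene of a histone H3 lysine 9 methyltransferase, as 1 floxed and 1 deleted allele together with the ZP3-cre transgene (F/-; ZP3-cre, 4 mice). Control oocytes were either heterozygous for the floxed allele with the same transgene and a wild-type copy (F/+; ZP3-cre, 4 mice) or carried the floxed and deleted alleles without Cre (F/-, 2 mice). The Zp3 promoter is active in growing oocytes, so recombination takes place during oocyte growth. Mutants thus share the transgene with F/+; ZP3-cre oocytes and the deleted allele with F/- oocytes, and every library was collected in milrinone.

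In its resting state PKA is a complex of catalytic subunits held inactive by a dimer of regulatory subunits, and cAMP bound by the regulatory subunits frees the catalytic ones. In mouse oocytes, cAMP made under the control of the receptor GPR3 keeps PKA active, and PKA holds meiosis in prophase by restraining the kinase CDK1 through CDC25B and WEE2. Meiosis resumes when the phosphodiesterase PDE3A breaks cAMP down, and milrinone blocks that enzyme. Type II regulatory subunits are mostly bound to AKAPs, whereas type I subunits are more often soluble.

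Promoter sequences are shown for 3 genes. Prkaca and Prkacb encode the catalytic pair, of which Prkaca alone passed a test below, and Prkar1a was the only one of the 9 genes with a full cAMP response element in a window. That element is the site bound by CREB, a transcription factor that PKA phosphorylates. Each sequence covers the 250 bases before an annotated RefSeq start (GRCm38.p6), 5′ to 3′ on the strand of the gene. Capitals mark the full element TGACGTCA, its shorter form TGACG, the CCAAT box and the GC box GGGCGG, on either strand.

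Prkaca, chr8:83972728-83972977, plus strand: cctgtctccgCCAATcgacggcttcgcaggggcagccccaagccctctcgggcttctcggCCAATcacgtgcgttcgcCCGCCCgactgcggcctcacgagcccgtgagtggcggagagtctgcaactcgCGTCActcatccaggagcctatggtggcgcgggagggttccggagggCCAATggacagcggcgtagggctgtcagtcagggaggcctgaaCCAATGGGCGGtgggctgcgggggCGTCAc

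Prkacb, chr3:146812947-146813196, minus strand: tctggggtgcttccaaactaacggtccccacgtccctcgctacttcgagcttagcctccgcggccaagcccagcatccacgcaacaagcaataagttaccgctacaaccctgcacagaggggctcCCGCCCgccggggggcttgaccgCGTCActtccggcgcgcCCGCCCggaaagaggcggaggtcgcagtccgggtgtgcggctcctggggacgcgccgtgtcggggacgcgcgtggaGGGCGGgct

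Prkar1a, chr11:109650699-109650948, plus strand: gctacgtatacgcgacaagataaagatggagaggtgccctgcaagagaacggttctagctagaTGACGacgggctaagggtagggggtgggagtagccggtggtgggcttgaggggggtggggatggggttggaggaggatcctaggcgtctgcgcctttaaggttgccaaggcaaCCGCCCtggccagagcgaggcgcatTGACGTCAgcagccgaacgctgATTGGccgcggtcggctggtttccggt

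Each of these genes has more than 1 annotated start, and 1 window of each is shown. Which start is used in these oocytes was not tested. The Prkaca window shown held 2 copies of TGACG, 4 CCAAT boxes and 2 GC boxes, and one CCAAT box directly adjoins a GC box. The other Prkaca window, chr8:83976633-83976882, held no marked motif. The Prkacb window shown held 1 copy of TGACG, no CCAAT box and 3 GC boxes. The other Prkacb windows, chr3:146781417-146781666 and chr3:146770239-146770488, held no marked motif. The Prkar1a window held 1 full element, 1 CCAAT box and 1 GC box. Its 3 copies of TGACG include the 2 that lie within the full element, which reads the same on both strands. G and C made up 68.8%, 69.2% and 61.6% of the bases in the Prkaca, Prkacb and Prkar1a windows.

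All 9 genes had a RefSeq window, 25 windows in all. The full element was in 1 of the 25, against 1.55% of all 32851 RefSeq windows of this length. TGACG was in 6, the CCAAT box in 6 and the GC box in 14, against 17.8%, 33.8% and 32.7% of all windows. Several windows of a gene overlap and so share bases, and the motifs were chosen with these promoters in view. A match describes the letters of a window and does not show that a factor binds there.

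Setdb1 itself was checked in every library. It was at 4.06, 2.55, 3.32 and 1.31 RPKM in mutants, against 28.6, 25.7, 25.1 and 52.5 RPKM in F/+; ZP3-cre oocytes and 19.9 and 26.3 RPKM in F/- oocytes. Mutant oocytes held 9.47% of the control mean, and the exact two-sided permutation p of 0.0048 is the smallest that the 210 splits of these libraries allow. The spacing of low values gave library sizes of about 45900000 to 73000000 reads. All 12 oocyte markers passed 0.5 RPKM in the mean, with summed levels of 5092 to 5204 RPKM in mutants, 5111 to 6385 RPKM in F/+; ZP3-cre oocytes and 5984 to 6797 RPKM in F/- oocytes. Of these 12, 3 were called in mutants against all controls and also against F/+; ZP3-cre. Of all tested genes, 5.33% were called against all controls. Against all controls Kit, a receptor kinase, fell by 0.81 on the log2 scale (adjusted p = 0.00084) and Dazl, a germ cell RNA-binding protein, by 0.52 (0.025), while the transcription factor Nobox rose by 0.42 (0.023). Against F/-, only Kit (-0.88, limma adjusted p = 0.0065) and Zp1 (-0.45, 0.019) of the 12 were called. Dazl and Nobox did not pass there (0.098 and 0.18). Of all tested genes, 4.84% were called against F/-. One library stood apart for the PKA genes: F/- replicate 2 gave the most extreme control value of Prkacb, Prkar1a, Prkar1b and Akap1. The members' results against all controls are therefore also given without it.

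The anchor Akap1 was the most abundant of the 9 genes, and the subunit genes followed in a wide range of levels. RPKM is scaled to transcript length, so levels can be set side by side between genes. Averaged over the 10 libraries, Akap1 stood at 62.9 RPKM, higher than 94.5% of the 11338 tested genes. Prkar2a followed at 24.7 RPKM, Prkar1a at 16.4 and Prkaca at 13.8 RPKM. Akap7 and Akap10 stood at 10.9 and 10.5 RPKM, Prkar2b at 5.90 and Prkacb at 3.99 RPKM, where the median tested gene had 6.06 RPKM. Prkar1b, a regulatory subunit gene best known from neurons, averaged 0.110 RPKM.

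The order of the genes was not the same in every group. In mutants it ran Akap1, Prkar2a, Prkar1a, Prkaca, Akap7, Akap10, Prkar2b, Prkacb, and among these only Akap1 and Prkar2a stood clear of the next gene in every library. In F/+; ZP3-cre oocytes Akap10 and Akap7 lay above Prkaca, although neighbouring genes from Akap10 to Prkaca overlapped, and the other neighbours did not. In F/- oocytes Prkaca lay above Prkar1a, without overlap between the values of these genes. Prkaca was thus the fourth gene in mutants, the sixth in F/+; ZP3-cre oocytes and the third in F/- oocytes.

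**Figure D1:**
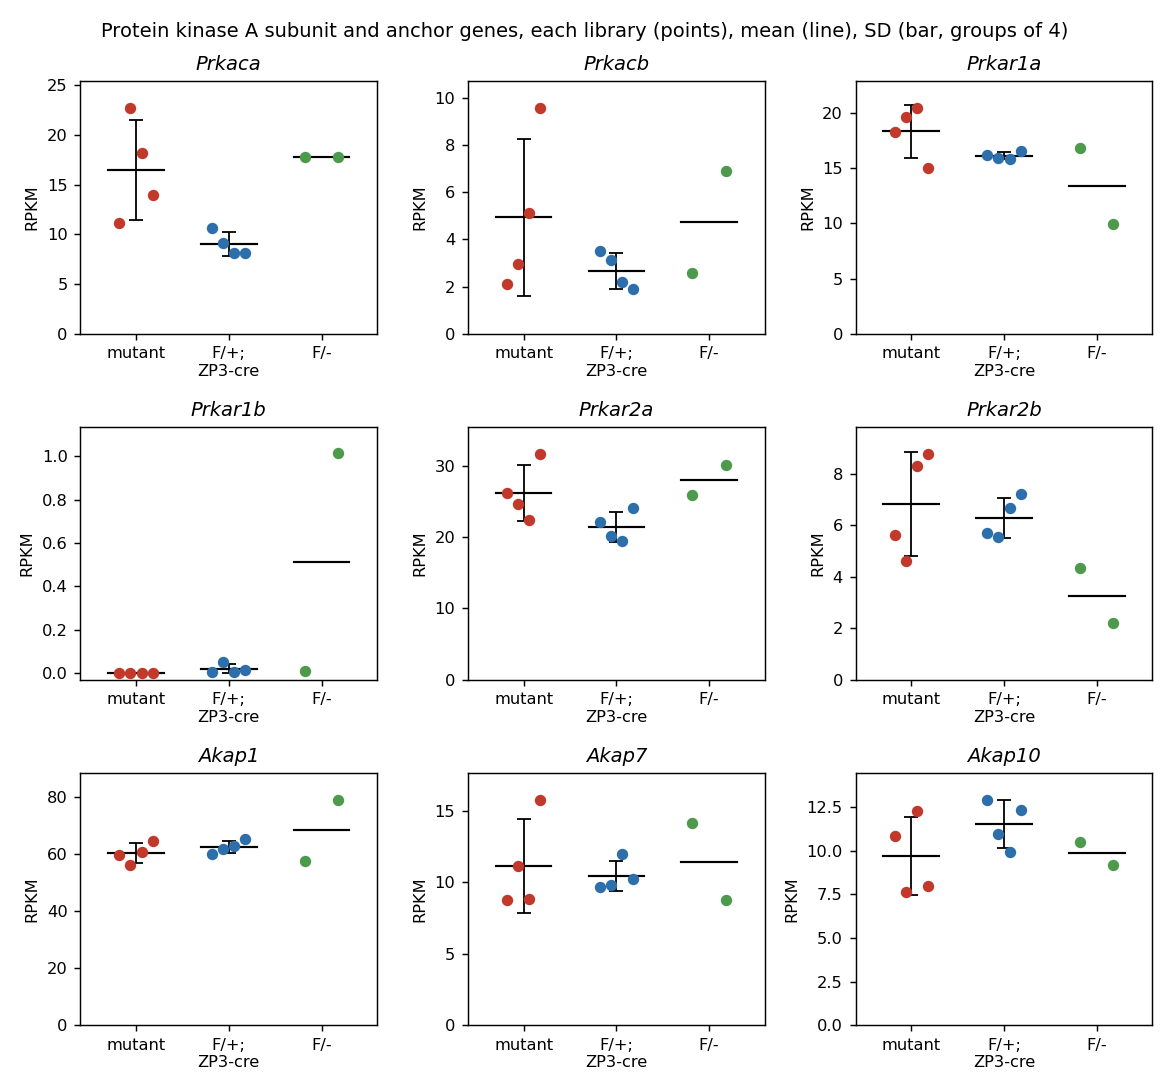
RPKM of the 9 genes in each library, with a panel per gene and its own axis from 0 (just below 0 for Prkar1b). Points are libraries, horizontal lines are group means and bars are the SD for the groups of 4; the Prkaca points of the 4 mutants (11.2 to 22.7 RPKM) lie above those of the 4 F/+; ZP3-cre libraries (8.12 to 10.7 RPKM), with both F/- libraries at 17.8 RPKM.

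Prkaca encodes the main catalytic subunit, Cα, and was the only member to pass the threshold in a comparison. It was at 11.2, 22.7, 18.2 and 13.9 RPKM in mutants, against 10.7, 9.10, 8.16 and 8.12 RPKM in F/+; ZP3-cre oocytes and 17.8 RPKM in both F/- libraries. Every mutant value lay above every F/+; ZP3-cre value, the closest pair being 11.2 in mutant replicate 1 and 10.7 in F/+; ZP3-cre replicate 1, while both F/- values lay inside the mutant range.

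Against F/+; ZP3-cre, Prkaca averaged 16.5 ± 5.04 RPKM in mutants and 9.01 ± 1.19 RPKM in F/+; ZP3-cre oocytes (SD, n = 4 each). On the log2(RPKM + 0.5) scale this is a change of 0.80, with a standard error of 0.21 and a 95% interval of 0.35 to 1.25, or 1.74-fold on this scale. limma gave an adjusted p of 0.047, so Prkaca was called higher in this comparison. It was the only one of the 8 tested members called higher and none was called lower, where 2.76% of all tested genes were called higher and 2.13% lower. Groups that do not overlap, with the mutants higher, were found for 8.86% of tested genes. The exact permutation p for Prkaca alone was 0.029, the smallest that the 70 splits allow.

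The Prkaca call lay close to the threshold. It was lost without mutant replicate 2, 3 or 4 (adjusted p = 0.091, 0.11 and 0.061) and without F/+; ZP3-cre replicate 1, 2, 3 or 4 (0.088, 0.13, 0.12 and 0.15). It was also lost when the libraries were scaled to a common median (log2 change 0.73, adjusted p = 0.070) or quantile normalised (0.70, adjusted p = 0.073). A replicate block (adjusted p = 0.085), no filter on low values (0.13) and a pseudocount of 2 (0.050, just above the threshold) ended it as well. The change stayed between 0.64 and 0.96 over all settings tried. The model uses 1 estimate of spread per gene for all groups. The median SD on the log2 scale was 0.39 in mutants, 0.19 in F/+; ZP3-cre oocytes and 0.39 in F/- oocytes.

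Against F/- oocytes, which averaged 17.8 RPKM, the change of Prkaca in mutants was -0.15, with an interval of -0.71 to 0.40 and an adjusted p of 0.77. Between the controls, F/+; ZP3-cre minus F/- was -0.95, with an interval of -1.51 to -0.40. That difference between the controls had a limma p of 0.0027 and an adjusted p of 0.14, where 14.0% of tested genes had a p under 0.05 and 0.0706% passed the adjusted threshold. The mutant value is shared by the first 2 of these comparisons and the control values by the last, so they are not independent. Against all 6 controls together the change was 0.48, with an interval of -0.09 to 1.06 and an adjusted p of 0.35.

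Summed markers of other ovarian cells were low next to the sum of the oocyte markers, although single genes were not: the granulosa marker Serpine2 was at 57.6 to 79.3 RPKM in mutants, 67.1 to 82.8 RPKM in F/+; ZP3-cre oocytes and 49.3 and 56.3 RPKM in F/- oocytes, and made up most of the granulosa sum. Of 14 granulosa and cumulus markers, 7 passed 0.5 RPKM in the mean and Ptx3 was at 0 in every library, with sums of 78.1 to 111.7 RPKM in mutants, 90.8 to 104 RPKM in F/+; ZP3-cre oocytes and 76.1 to 77.9 RPKM in F/- oocytes. Nr5a2 and Cyp19a1 of this list averaged 13.2 and 8.22 RPKM in mutants, and 12.65 and 6.57 RPKM in all controls. Of 11 blood, immune and endothelial markers, 5 passed and Hbb-b1, Hba-a1 and Cdh5 were at 0, with sums of 22.2 to 42.9 RPKM in mutants, 30.0 to 40.3 RPKM in F/+; ZP3-cre oocytes and 45.4 to 46.8 RPKM in F/- oocytes. The highest of these were C1qb, averaging 12.7 RPKM in mutants and 14.5 RPKM in all controls, and Pecam1. Pecam1 averaged 13.7 RPKM in mutants, 17.7 RPKM in F/+; ZP3-cre oocytes and 24.9 RPKM in F/- oocytes. Its change in mutants against F/- was -0.92 (limma adjusted p = 0.11). Of 9 theca and stroma markers, 1 passed and Cyp17a1 and Lhcgr were at 0, with sums of at most 3.93 RPKM in any library. Their part in the Prkaca difference between the controls, or between mutants and F/+; ZP3-cre oocytes, was not tested. In bulk libraries such as these, fewer cells of a type and less RNA per cell cannot be told apart.

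Prkacb encodes the second catalytic subunit, Cβ, and had the widest interval of the 8 tested members against all controls. It was at 2.12, 2.94, 5.13 and 9.57 RPKM in mutants, against 3.51, 3.13, 2.19 and 1.88 RPKM in F/+; ZP3-cre oocytes and 2.57 and 6.91 RPKM in F/- oocytes. Mutant replicates 3 and 4 and F/- replicate 2 were the 3 highest libraries, and the remaining values of the groups overlapped. The change against all controls was 0.41, with an interval of -0.44 to 1.25 and an adjusted p of 0.62. Against F/+; ZP3-cre it was 0.61, with an adjusted p of 0.48. Without mutant replicate 4 the change against all controls was 0.05.

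Prkar1a encodes RIα, the widely expressed type I regulatory subunit whose loss in humans causes Carney complex. It was at 18.2, 19.6, 20.4 and 15.0 RPKM in mutants, against 16.2, 15.9, 15.8 and 16.6 RPKM in F/+; ZP3-cre oocytes and 16.8 and 9.97 RPKM in F/- oocytes. Mutant replicates 1, 2 and 3 lay above all controls and mutant replicate 4 lay below 5 of the 6. The change against all controls was 0.27, with an interval of -0.09 to 0.64 and an adjusted p of 0.41.

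Prkar1b was listed at 0 in all 4 mutant libraries. It was at 0.0062, 0.051, 0.0067 and 0.017 RPKM in F/+; ZP3-cre oocytes and at 0.0083 and 1.02 RPKM in F/- oocytes. F/- replicate 2 alone held about 195 reads of this gene, against at most about 9 reads in any other library. A floor of 3 reads corresponds to 0.016 to 0.025 RPKM for this transcript, so 0 reads in mutants and the lowest control values could not be told apart at this depth. Of its exonic bases, 8.95% are shared with Gm15672 on the same strand, and reads there could belong to either gene.

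Prkar2a encodes RIIα, the subunit through which most AKAPs hold the enzyme, and was the most abundant subunit gene in every library. It was at 26.2, 24.6, 22.5 and 31.7 RPKM in mutants, against 22.2, 20.2, 19.5 and 24.2 RPKM in F/+; ZP3-cre oocytes and 25.9 and 30.2 RPKM in F/- oocytes. The mutant values overlapped both control groups. The change was 0.15 against all controls (interval -0.17 to 0.47, adjusted p = 0.63) and 0.28 against F/+; ZP3-cre (interval -0.03 to 0.58, adjusted p = 0.31).

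Prkar2b encodes RIIβ, the other type II subunit, known from adipose tissue and brain. It was at 5.64, 4.60, 8.29 and 8.78 RPKM in mutants, against 5.70, 5.55, 6.67 and 7.21 RPKM in F/+; ZP3-cre oocytes and 4.34 and 2.19 RPKM in F/- oocytes. The F/- values were the lowest of all, and the mutant values overlapped those of F/+; ZP3-cre oocytes. Against F/- the change in mutants was 0.98, with an interval of 0.27 to 1.68, a limma p of 0.011 and an adjusted p of 0.11. The groups did not overlap in that comparison, as for 13.7% of tested genes with the mutants higher. F/+; ZP3-cre minus F/- was 0.90 (adjusted p = 0.24), and mutant minus F/+; ZP3-cre was 0.07 (interval -0.50 to 0.65, adjusted p = 0.91).

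None of the 8 tested members was called against F/-, where 4.84% of tested genes were called. With F/- replicate 1 left out, 2 members were called higher in mutants, Prkar1a (0.84, adjusted p = 0.025) and Prkar2b (1.40, adjusted p = 0.030). Both calls rest on F/- replicate 2 alone, which is then assumed to vary like the other groups.

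**Figure D2:**
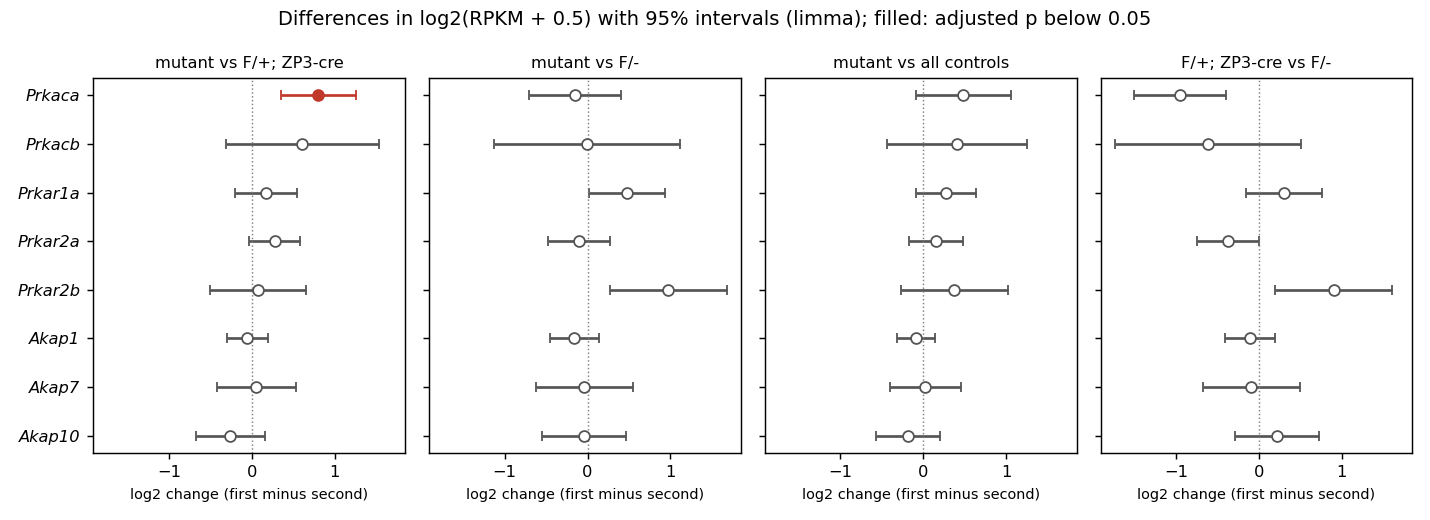
Differences in log2(RPKM + 0.5) for the 8 tested genes in 4 comparisons, each the group named at the left of a panel title minus the other group, with 95% intervals from limma. The filled point marks the single call, Prkaca in mutants against F/+; ZP3-cre (0.80, interval 0.35 to 1.25); for Prkaca the interval of F/+; ZP3-cre minus F/- lies wholly below 0.

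Summed transcripts of each kind were compared as a description of the transcript balance between regulatory and catalytic subunits. Subunit protein was not measured, and its balance can differ. Catalytic transcripts (Prkaca plus Prkacb) summed to 13.3, 25.7, 23.4 and 23.5 RPKM in mutants, against 14.2, 12.2, 10.4 and 9.996 RPKM in F/+; ZP3-cre oocytes and 20.4 and 24.8 RPKM in F/- oocytes. Mutant replicates 2, 3 and 4 and both F/- libraries lay at or above 20.4 RPKM, whereas mutant replicate 1 lay among the F/+; ZP3-cre libraries. Prkaca made up 59.3% to 88.5% of the catalytic sum in mutants, 74.4% to 81.2% in F/+; ZP3-cre oocytes and 72.1% to 87.4% in F/- oocytes.

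Regulatory transcripts (Prkar1a, Prkar1b, Prkar2a and Prkar2b) summed to 50.1, 48.9, 51.2 and 55.5 RPKM in mutants, against 44.1, 41.7, 42.0 and 48.0 RPKM in F/+; ZP3-cre oocytes and 47.1 and 43.4 RPKM in F/- oocytes. The lowest mutant sum was 48.9 RPKM, against 48.0 RPKM in the highest control, but the groups overlapped when libraries were scaled to a common median (lowest mutant 48.3, highest control 51.0) or quantile normalised (46.5 and 50.5). Type II subunits gave 59.8% to 73.0% of the regulatory sum in mutants, 61.7% to 65.4% in F/+; ZP3-cre oocytes and 64.3% to 74.7% in F/- oocytes.

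Regulatory transcripts exceeded catalytic ones in every library. The ratio was 3.76, 1.91, 2.19 and 2.36 in mutants, against 3.11, 3.41, 4.05 and 4.80 in F/+; ZP3-cre oocytes and 2.31 and 1.76 in F/- oocytes. It averaged 2.56 ± 0.83 in mutants (n = 4), 3.84 ± 0.75 in F/+; ZP3-cre oocytes (n = 4) and 3.24 ± 1.11 over all controls (SD, n = 6). Mutant and control ratios overlapped, and mutant replicate 1 lay within the range of F/+; ZP3-cre.

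**Figure D3:**
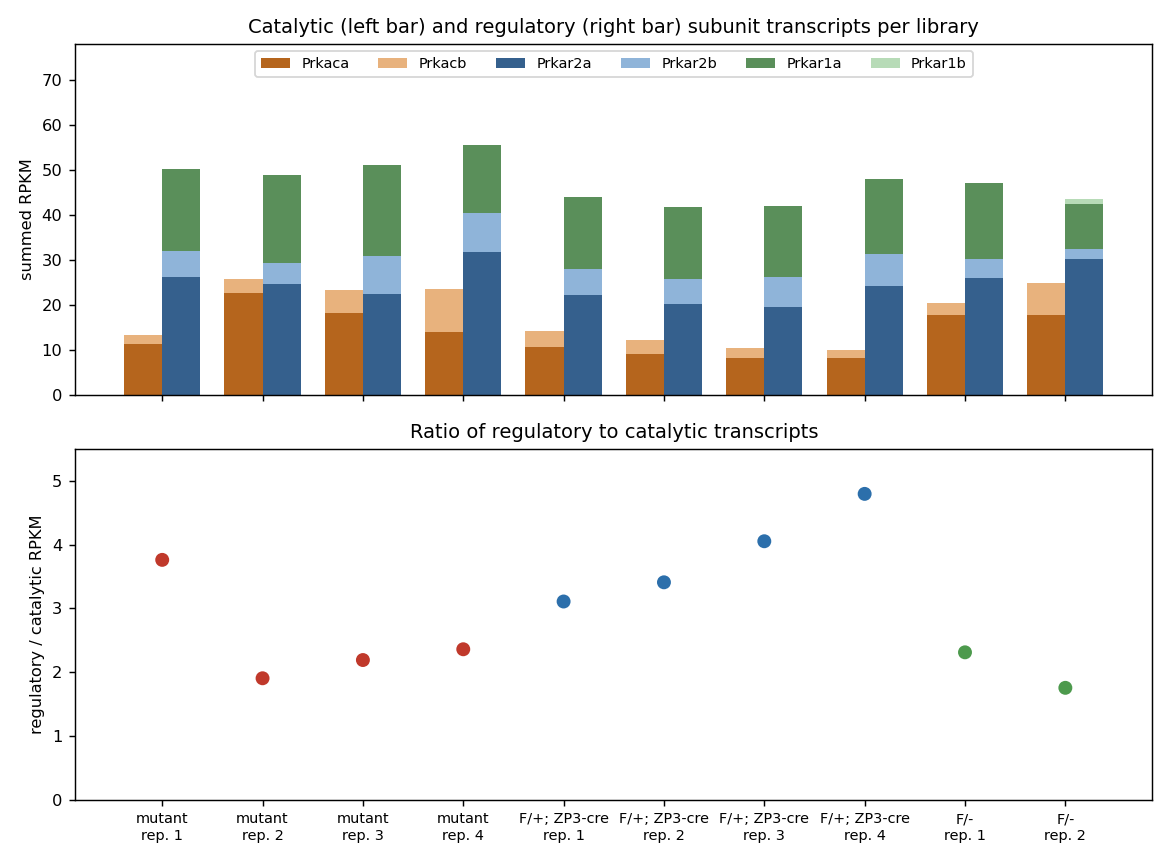
Summed RPKM of catalytic (left bar of each pair) and regulatory transcripts (right bar) by gene in each library, and below it the ratio of regulatory to catalytic RPKM. The ratio lies between 3.11 and 4.80 in F/+; ZP3-cre libraries, between 1.91 and 2.36 in mutant replicates 2, 3 and 4 and at 3.76 in mutant replicate 1, with F/- libraries at 2.31 and 1.76.

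None of the 3 anchor genes passed in any comparison. Akap1 encodes an anchor of the outer mitochondrial membrane that binds type II subunits and, with lower affinity, type I subunits. It was at 59.8, 56.3, 61.0 and 64.7 RPKM in mutants, against 60.1, 62.0, 63.0 and 65.3 RPKM in F/+; ZP3-cre oocytes and 57.7 and 79.2 RPKM in F/- oocytes. Apart from F/- replicate 2, all values lay between 56.3 and 65.3 RPKM. Its change against all controls was -0.09, with an interval of -0.32 to 0.14 (adjusted p = 0.69), the narrowest interval among the 8 members.

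Akap7 encodes AKAP18, whose forms sit at membranes or in the cytoplasm. It was at 8.78, 11.1, 8.86 and 15.8 RPKM in mutants, against 9.69, 9.80, 12.0 and 10.2 RPKM in F/+; ZP3-cre oocytes and 14.1 and 8.73 RPKM in F/- oocytes. The groups overlapped throughout. The change against all controls was 0.02, with an interval of -0.40 to 0.45 (adjusted p = 0.96), and its sign turned when libraries were scaled to a common median (-0.04), among other settings. Of its exonic bases, 1.07% are shared with the antisense gene Gm40617, and the library kit does not keep strand.

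Akap10 encodes D-AKAP2, an anchor that binds both types of regulatory subunit. It was at 10.9, 7.67, 12.3 and 7.97 RPKM in mutants, against 12.9, 10.97, 9.93 and 12.3 RPKM in F/+; ZP3-cre oocytes and 10.5 and 9.17 RPKM in F/- oocytes. Mutant replicates 2 and 4 were the lowest libraries, and mutant replicates 1 and 3 lay within the control range. The change was -0.19 against all controls (interval -0.57 to 0.20, adjusted p = 0.62) and -0.26 against F/+; ZP3-cre (adjusted p = 0.51).

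Against all 6 controls, none of the 8 tested members was called by limma and none had an unadjusted p under 0.05. Of all tested genes, 5.33% were called, 3.10% higher and 2.22% lower, and 19.8% had an unadjusted p under 0.05. The changes of the members were positive for 6 and negative for 2, with a median of 0.21, beside 52.7% positive changes and a median of 0.03 over all tested genes. Against F/- alone the tally turned round, with 2 positive and 6 negative changes and a median of -0.04, beside 55.5% positive changes over all tested genes, and against F/+; ZP3-cre it was 6 positive and 2 negative with a median of 0.12. These comparisons share the mutant libraries. For all controls, scaling to a common median gave 5 positive and 3 negative changes with a median of 0.15, and quantile normalisation gave 5 and 3 with 0.11. Without F/- replicate 2 no member was called either: the changes were 0.61 for Prkaca, 0.62 for Prkacb, 0.16 for Prkar1a, 0.22 for Prkar2a, 0.17 for Prkar2b, -0.03 for both Akap1 and Akap7 and -0.23 for Akap10, with adjusted p-values of 0.17 to 0.94. The 0 calls do not show equal levels, since the intervals reached more than 0.5 from 0 on the log2 scale for Prkaca, Prkacb, Prkar1a, Prkar2b and Akap10.

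Several symbols had more than 1 transcript row. The other rows of Prkaca (2 rows in all), Prkacb (4), Prkar1a (5) and Akap1 (3) stood at 93.2% to 103.1% of the row used, so these rows gave almost the same value and did not separate isoforms. The members lie on chromosomes 3, 5, 8, 9, 10, 11 and 12, with Prkar1a, Akap1 and Akap10 all on chromosome 11. In GRCm38, Prkaca spans chr8:83972993-83996443 on the plus strand and Prkacb chr3:146729574-146812990 on the minus strand. Prkaca, Prkacb, Prkar1a, Prkar2a, Prkar2b, Akap1 and Akap10 share no exonic base with another annotated gene.

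The genes around PKA were grouped by role: its inhibitors and a PKA-like kinase, the other anchors, the genes that set cAMP, and targets and other effectors. Among 4 inhibitor and PKA-like genes, 3 were tested and none passed in either direction against all controls. The smallest p belonged to Pkib, an inhibitor of the catalytic subunit, at 2.11 ± 1.28 RPKM in mutants (n = 4) and 1.03 ± 0.61 RPKM in controls (n = 6), a change of 0.81 (adjusted p = 0.32). The size of that change depended on the setting and the control group: it was 1.22 with a pseudocount of 0.1, 1.24 with all rows summed, 0.42 with a pseudocount of 2 and 0.19 with library weights. Without F/- replicate 2, where Pkib was at 0.020 RPKM, it was 0.52, and without mutant replicate 2 it was 0.51. Against F/+; ZP3-cre it was 0.38 (adjusted p = 0.64) and against F/- 1.66 (adjusted p = 0.058). Prkx, a kinase close to the PKA catalytic subunit, followed at 4.39 ± 1.69 RPKM in mutants (n = 4) and 3.18 ± 1.38 RPKM in controls (n = 6), a change of 0.42 (adjusted p = 0.54).

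Among 23 other anchors, 15 were tested, of which 1 was called higher and none lower, beside 3.10% and 2.22% of all tested genes. The median change was 0.02. Of the 15, 6 had an unadjusted limma p under 0.05, beside 19.8% of all tested genes. Among these, Rab32 and Wasf1 changed upward, and Akap9, Akap12, Akap13 and Akap17b downward. All mutant values of Akap9, Akap13 and Akap17b lay below all control values, as for 3.56% of tested genes. Values of Akap12 and Wasf1 overlapped. The one called was Rab32, a small GTPase that binds PKA at mitochondria and has further roles in organelle traffic. It was at 27.8, 29.9, 25.2 and 26.1 RPKM in mutants, against 15.1, 16.2, 16.3 and 15.6 RPKM in F/+; ZP3-cre oocytes and 18.8 and 8.73 RPKM in F/- oocytes. All mutant values lay above all control values, as for 4.62% of tested genes. The change was 0.86 with a standard error of 0.18 (adjusted p = 0.015), and Rab32 also passed against F/+; ZP3-cre (0.76, adjusted p = 0.043) and against F/- (1.05, adjusted p = 0.028). The call against all controls was lost when all genes of the table were tested with no filter on low values (adjusted p = 0.075).

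Among 30 genes that set cAMP (receptors, G proteins, cyclases and phosphodiesterases), 23 were tested. Against all controls none was called higher and 3 were called lower, with a median change of 0.19. Of all tested genes, 3.10% were called higher and 2.22% lower. Changes were positive for 15 of the 23 and negative for 8. Of the 23, 10 had an unadjusted limma p under 0.05, beside 19.8% of all tested genes. Of these 10, Gpr12, Gnas, Gnai2, Pde1b and Pde3b changed upward, and Gnai1, Pde3a, Pde4a, Pde4d and Pde8a downward. Pde4a encodes a cAMP-specific phosphodiesterase. It was at 0.22, 0.099, 0.55 and 0.29 RPKM in mutants, against 1.47, 2.53, 2.00 and 1.25 RPKM in F/+; ZP3-cre oocytes and 1.22 and 1.06 RPKM in F/- oocytes. No mutant value reached a control value, as for 3.56% of tested genes. The change of -1.39 (standard error 0.30, adjusted p = 0.017) missed the threshold without F/+; ZP3-cre replicate 2 (-1.28, adjusted p = 0.052). At such low levels its size follows the pseudocount, with -2.18 at 0.1 and -0.64 at 2, and summing all rows gave -1.97. Pde8a, a phosphodiesterase of high affinity for cAMP, also fell, by 1.03 on the log2 scale (adjusted p = 0.0077).

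Gnai1 encodes an inhibitory G protein subunit that lowers cyclase activity, and was at 8.66 ± 2.95 RPKM in mutants (n = 4) and 17.1 ± 4.23 RPKM in controls (n = 6). It fell by 0.96 on the log2 scale (adjusted p = 0.031), although F/- replicate 2 at 10.9 RPKM lay within the mutant range of 5.91 to 11.4 RPKM. That call was lost without mutant replicate 1 or 3 (adjusted p = 0.096 and 0.093) and without F/+; ZP3-cre replicate 1, 2, 3 or 4 (0.055, 0.068, 0.063 and 0.074), and with no filter on low values (0.14). Against F/- no gene of this list was called lower and 1 was called higher, where 4.84% of all tested genes were called. The one called was Pde3b, a phosphodiesterase blocked by cGMP, at 15.2 ± 1.93 RPKM in mutants (n = 4) and 8.63 and 6.85 RPKM in F/- oocytes (adjusted p = 0.036). Pde8a, Pde4a and Gnai1 were also lower against F/-, by 0.93, 1.08 and 0.67, without passing (limma adjusted p = 0.060, 0.13 and 0.22).

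Among 16 PKA targets and other cAMP effectors, 15 were tested and none passed in either direction, with a median change of 0.07. The smallest p belonged to Wee1, a kinase that inhibits CDK1. It was at 14.9, 9.58, 9.04 and 10.3 RPKM in mutants, against 6.20, 7.30, 6.09 and 5.85 RPKM in F/+; ZP3-cre oocytes and 8.20 and 4.53 RPKM in F/- oocytes. All mutant values of Wee1 lay above all control values, as for 4.62% of tested genes. Its change was 0.73 with an adjusted p of 0.055. It passed without F/- replicate 1 (0.81, adjusted p = 0.038) and with library weights (0.74, adjusted p = 0.013). Atf1, a transcription factor of the CREB family, was at 46.4 ± 7.76 RPKM in mutants (n = 4) and 34.8 ± 4.16 RPKM in controls (n = 6), a change of 0.40 (adjusted p = 0.11). Of the whole-table calls, 58.3% were increases, against 47.2% after scaling to a common median and 48.9% after quantile normalisation.

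**Figure D4:**
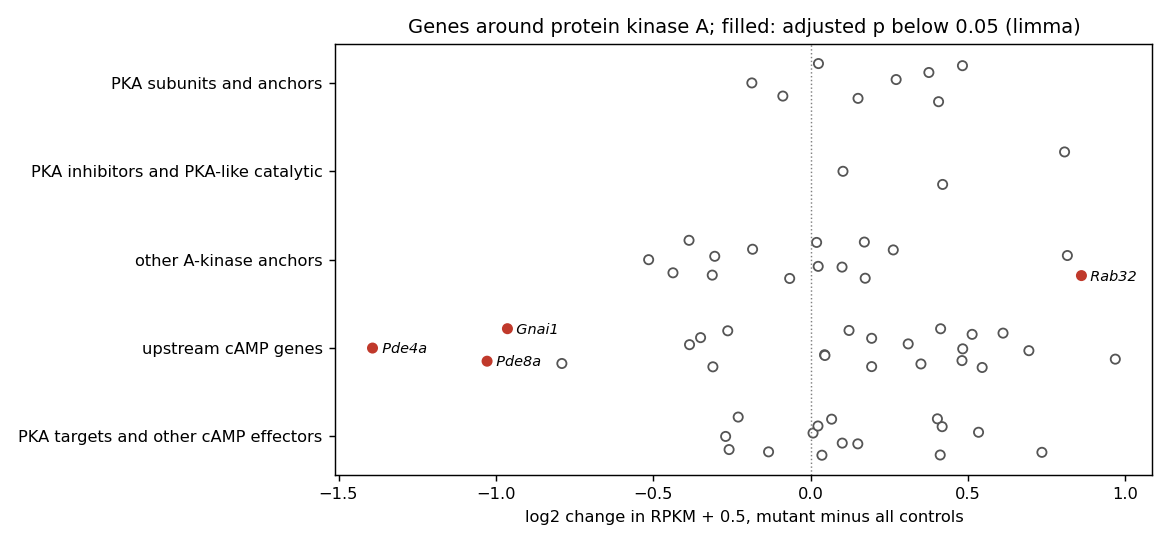
Change in log2(RPKM + 0.5), mutants minus all controls, of every tested gene of the PKA set and the 4 surrounding lists, one point per gene; height within a row only separates points. Filled points passed an adjusted p of 0.05 in limma: Rab32 at 0.86, Gnai1 at -0.96, Pde8a at -1.03 and Pde4a at -1.39, and none of the 8 PKA genes.

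Genes of similar pattern were sought for the most abundant catalytic, regulatory and anchor gene among the 9 members. Likeness was taken as Pearson's r of log2(RPKM + 0.5) over the 10 libraries. For Prkaca the most alike genes were Fa2h (r = 0.93), Tns2 (0.92) and Polr2j (0.92). For Prkar2a they were Tmbim1 (0.94), Vps25 (0.92) and Pmm1 (0.90). For Akap1 they were Ggnbp2os (0.98), Wisp3 (0.98) and Nol3 (0.95). Without F/- replicate 2, the library with the highest Akap1 value, the r of these 3 with Akap1 over the other 9 libraries was 0.90, 0.91 and 0.81. Ggnbp2os averaged 0.60 RPKM, near the limit for a test. These are the highest values among all other tested genes, over libraries that differ in depth and share the amplification method.

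Among the members themselves, the strongest relation over the 10 libraries was between Prkar1a and Akap1, with r = -0.90. F/- replicate 2 was the lowest library for Prkar1a and the highest for Akap1, and over the other 9 libraries r was -0.59. Over those 9 the strongest relation was between Prkar2b and Akap1, with r = 0.81, against -0.46 over all 10. Without that library, r moved from -0.07 to -0.70 for Prkaca and Akap1, and from 0.05 to 0.63 for Prkaca and Prkar1a. Over all 10 libraries Prkaca and Prkacb had r = 0.45, and Prkaca and Prkar2a 0.50. After the group means were removed, r was -0.89 for Prkar1a and Akap1, 0.14 for Prkaca and Prkacb and -0.36 for Prkaca and Prkar2a. These values include F/- replicate 2 and were not taken without it.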

How the data were processed

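Each of the 10 libraries came from a separate mouse. Per the labels' protocols, RNA was isolated with an RNeasy Micro kit, amplified as cDNA with the NuGen Ovation RNA-Seq System and sequenced from TruSeq DNA libraries, which keep no strand. The tools bcl2fastq 1.8.3 and STAR and the build mm10 are listed, without their roles, in the submitters' processing notes. How reads were counted per transcript is not given in the sources. The deposited values are RPKM for 34768 transcript rows, and the row with the highest mean stood for a gene. The part of amplification from 16 oocytes in the spread between libraries was not tested.

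Tests were run with limma 3.58.1 in R 4.3.3 (empirical Bayes with a trend) on log2(RPKM + 0.5), which understates changes of low genes, for the 11338 genes averaging 0.5 RPKM or more. P-values were adjusted by Benjamini-Hochberg over all of these, with a threshold of 0.05, and are two-sided. Mutants were set against all controls in a model of 2 levels, and the other comparisons came from a model of 3 groups. The models were tested on simulated data. Read depth was estimated from the spacing of low values with GENCODE M21 transcript lengths: 68.8% to 75.3% of low values lay within 0.1 of a whole read. The values of replicates were not identical.

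The 9 genes, the surrounding lists and the tests were chosen with earlier results of these data known. Named were all members and Setdb1, and of each list up to 4 genes of smallest p that passed, or the 2 of smallest p where none passed. Pde3b, Kit, Dazl, Nobox, Serpine2, Nr5a2, Cyp19a1, C1qb and Pecam1 were named after their values were seen. So were the anchors Wasf1, Akap9, Akap12, Akap13 and Akap17b. The cAMP genes Gpr12, Gnas, Gnai2, Pde1b, Pde3a and Pde4d and the oocyte marker Zp1 were too. Alternatives covered pseudocount, filter, scaling, rows, spread estimate, library weights, a replicate block and each library left out.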

Additional observations from a re-analysis of the deposited data

Results flagged for a closer look

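In 4 of 26 groups of values checked, the most extreme library lay far from the rest. In each case it was F/- replicate 2 among the 6 controls. The limit is set to flag about 1 in 20 groups of normally distributed values from a single population. The 6 controls mix 2 genotypes and the groups checked share libraries, so that rate does not hold for these checks. It gave the highest control value of Prkacb, 6.91 RPKM, with the other controls at 1.88 to 3.51 RPKM. It gave the lowest control value of Prkar1a, 9.97 RPKM, with the others at 15.8 to 16.8 RPKM. It gave the highest control value of Prkar1b, 1.02 RPKM, with the others at 0.0062 to 0.051 RPKM. It gave the highest control value of Akap1, 79.2 RPKM, with the others at 57.7 to 65.3 RPKM. This library was also the deepest, at about 73000000 reads. The part of depth in these values was not tested.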

How the results depend on the processing

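The number of members called higher in mutants than in F/+; ZP3-cre was 1 and fell to 0 under 12 of 22 alternatives: a pseudocount of 2 (Prkaca adjusted p = 0.050), no filter on low values (0.13), median centring, quantile normalisation, the replicate block, and 7 of the 10 libraries left out singly (range 0 to 1). The cause was not tested. Against F/- the count was 0 and ranged from 0 to 2 when libraries were left out. The counts against all controls and between the controls stayed at 0 in both directions under all alternatives run. Akap7 reversed sign against all controls, from 0.02 to -0.035 with median centring, -0.058 with quantile normalisation, -0.042 with library weights, -0.0012 with the replicate block, and between -0.15 and 0.12 with single libraries left out; it passed in none. The other 7 tested members kept their sign, and Setdb1 its call. Summing all rows of a symbol instead of taking the highest moved the catalytic sum to 52.3 RPKM in mutants and 36.9 RPKM in controls (21.5 and 15.3 with 1 row) and the regulatory sum to 123.2 and 104.1 RPKM (51.4 and 44.4), because near-identical rows are then counted repeatedly. The ratio of these sums stayed at 2.56 in mutants and 3.22 in controls. The alternatives for the genes around PKA, and the fit of only the 8 mutant and F/+; ZP3-cre libraries (Prkaca adjusted p = 0.041), were added after the data had been seen.

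Replicate numbers did not pair the libraries: deviations of same-numbered libraries correlated at -0.046 to 0.031. With the replicate block, Prkaca against F/+; ZP3-cre stayed at 0.80 with an adjusted p of 0.085, and the members called in that comparison were 0. Every other count of called members was 0 with and without the block.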
